A study of Homo sapiens with 6 samples.

Results

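The genes described here are the 35 that encode the nutrient-sensing machinery of the lysosome surface, the kinase complex mTORC1 that it controls, and the transcription factors TFEB, TFE3 and MITF. They were taken by gene symbol from a table of 60664 genes, and all 35 passed the filter on low counts that left 15900 genes to test. The counts came from RNA sequencing of 6 libraries of PC9OR, which the labels describe as a lung cancer cell line and the series title places in work on resistance to EGFR inhibitors. There were 3 NC libraries (genotype labelled Control) and 3 si-GLMP libraries (genotype labelled GLMP knockdown). PC9 is a human lung adenocarcinoma line, and GLMP is a glycosylated protein of the lysosomal membrane. No drug, dose, time after transfection or small interfering RNA sequence is given in the labels. They do not say whether replicates were separate cultures either, so the p-values rest on library-to-library spread that may be technical.

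GLMP itself had 309, 344 and 347 counts in NC replicates 1 to 3 against 82, 61 and 65 in si-GLMP replicates 1 to 3, a fall of 79.0% (log2 fold change, log2FC below, -2.25 ± 0.14 SE, edgeR Benjamini-Hochberg (BH) adjusted p = 1.16e-18). Library totals lay between 19896875 and 22372878 counts. Epithelial markers were abundant, with 6 markers (EPCAM, KRT8, KRT18, KRT19, CDH1 and CLDN4) summing to 7090 to 7280 CPM (counts scaled to the library total) in NC and 6960 to 7680 CPM in si-GLMP. Melanocyte markers, checked because MITF is best known from that lineage, summed to 3.13 to 3.64 CPM in NC against 2.55 to 3.42 CPM in si-GLMP, with TYR at 0 in each library. Leukocyte markers summed to 15.8 to 20.9 CPM in NC against 29.2 to 33.2 CPM in si-GLMP, nearly all of it CSF1R, with LYZ and TYROBP at 0. Fibroblast markers summed to 5.41 to 7.48 CPM in NC against 9.67 to 11.4 CPM in si-GLMP, mostly COL1A1, with COL3A1 at 0, and endothelial markers to 4.82 to 7.68 CPM in NC against 6.78 to 7.64 CPM in si-GLMP. The part of the CSF1R and COL1A1 rises in the results below was not tested. In RNA from a whole culture, fewer cells with a transcript and less of it per cell cannot be told apart.

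Cells read their supply of amino acids at the lysosome. Amino acids act through sensors and through the GATOR complexes on the Rag GTPases, which are held on the lysosome by the Ragulator scaffold and, when active, recruit mTORC1 to the membrane, where the GTPase RHEB switches the kinase on. TSC1, TSC2 and TBC1D7 form the complex that turns RHEB off. Active mTORC1 favours growth and, through the Rag GTPases and folliculin, keeps the MiT factors TFEB, TFE3 and MITF phosphorylated in the cytoplasm. When they enter the nucleus they bind E-box elements in genes of lysosomes and autophagy and in some genes of the sensing machinery itself.

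Sequences just upstream of 5 members are shown because they hold the core of the element that MiT factors are known to bind. RefSeq start windows (GRCh38.p14, from 250 bases before a start to 50 after) were found for 30 of the 35 members, 45 windows in all. The letters GTCACGTG, searched on both strands, occurred in windows of RRAGC, FNIP1, LAMTOR4, TSC2 and RRAGB, which is 16.7% of the members with a window, beside 2.93% of all genes with one. The shorter E-box CACGTG, which lies inside GTCACGTG, occurred in 7 members (these 5, LAMTOR1 and NPRL3), which is 23.3%, beside 8.77% of all genes. TGATGNAA, letters of the element bound by ATF4 with C/EBP partners, occurred in TSC2 alone (3.33% of members, 4.46% of all genes), where it overlaps the GTCACGTG match. The shares of all genes are over 27305 genes, many of them not tested here, whereas every member was tested. Among the 10956 tested genes with a window, 552 held GTCACGTG, 1351 CACGTG and 311 TGATGNAA. The members' shares beside all genes therefore do not compare like with like. A match is a description of these letters and not a binding site. Each sequence runs 5′ to 3′ on the gene's strand and ends no later than the base before the start, and capitals mark GTCACGTG or its reverse complement, which overlap in RRAGB.

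RRAGC (chr1:38859827-38859934, minus strand): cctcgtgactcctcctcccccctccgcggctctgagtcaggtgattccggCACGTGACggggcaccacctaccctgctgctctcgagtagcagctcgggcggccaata
FNIP1 (chr5:131797135-131797242, minus strand): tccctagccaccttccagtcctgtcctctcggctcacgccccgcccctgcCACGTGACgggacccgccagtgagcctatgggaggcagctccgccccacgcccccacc
LAMTOR4 (chr7:100148854-100148917, plus strand): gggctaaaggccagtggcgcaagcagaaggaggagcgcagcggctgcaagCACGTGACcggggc
TSC2 (chr16:2047819-2047926, plus strand): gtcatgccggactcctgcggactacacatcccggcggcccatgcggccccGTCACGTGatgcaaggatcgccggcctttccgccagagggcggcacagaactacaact
RRAGB (chrX:55717672-55717748, plus strand): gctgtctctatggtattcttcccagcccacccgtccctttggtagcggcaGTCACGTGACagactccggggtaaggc

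In LAMTOR4 the match sits closest to the start, with its last base 7 bases before it. Of these 5 genes, LAMTOR4 rose in si-GLMP, and RRAGC, FNIP1, TSC2 and RRAGB were not called, with log2FCs of 0.06, -0.03, -0.08 and -0.01. No match was found in the windows of MITF, TFE3, TFEB, FLCN or SESN2, which says only that these letters are not in those windows.

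Most members changed little. Of the 35, 9 were higher in si-GLMP (SESN2, RRAGA, TBC1D7, LAMTOR4, RHEB, MLST8, TFE3, RPTOR and SEC13), 1 was lower (MITF) and 25 were not called, at a Benjamini-Hochberg (BH) adjusted p under 0.05 in edgeR's quasi-likelihood test over all 15900 genes. Among all tested genes, 23.3% were called, 12.0% higher and 11.3% lower. The members' shares were 28.6% called, 25.7% higher and 2.86% lower, so the total was near that of all genes and the split leaned to higher. The members, too, were chosen with earlier results of these data known. The median log2FC was 0.04 over the members and 0.00 over all tested genes, and 21 members lay above 0 and 14 below. Ignoring sign, the median log2FC of the 10 called members was 0.30, beside 0.39 for all called genes. The ranges of NC and si-GLMP were separate in 14 of the 35 members, beside 36.5% of all tested genes.

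How firm the calls were differed between members. SESN2, RRAGA, RHEB and MITF passed in each of 13 alternative analyses. Leaving out NC replicate 1 or 3 left 5 higher members in each case, and leaving out si-GLMP replicate 1 or 3 left 4 and 5. There were 4 when an absolute log2FC over 0.3 was also asked for.

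**Figure D1:**
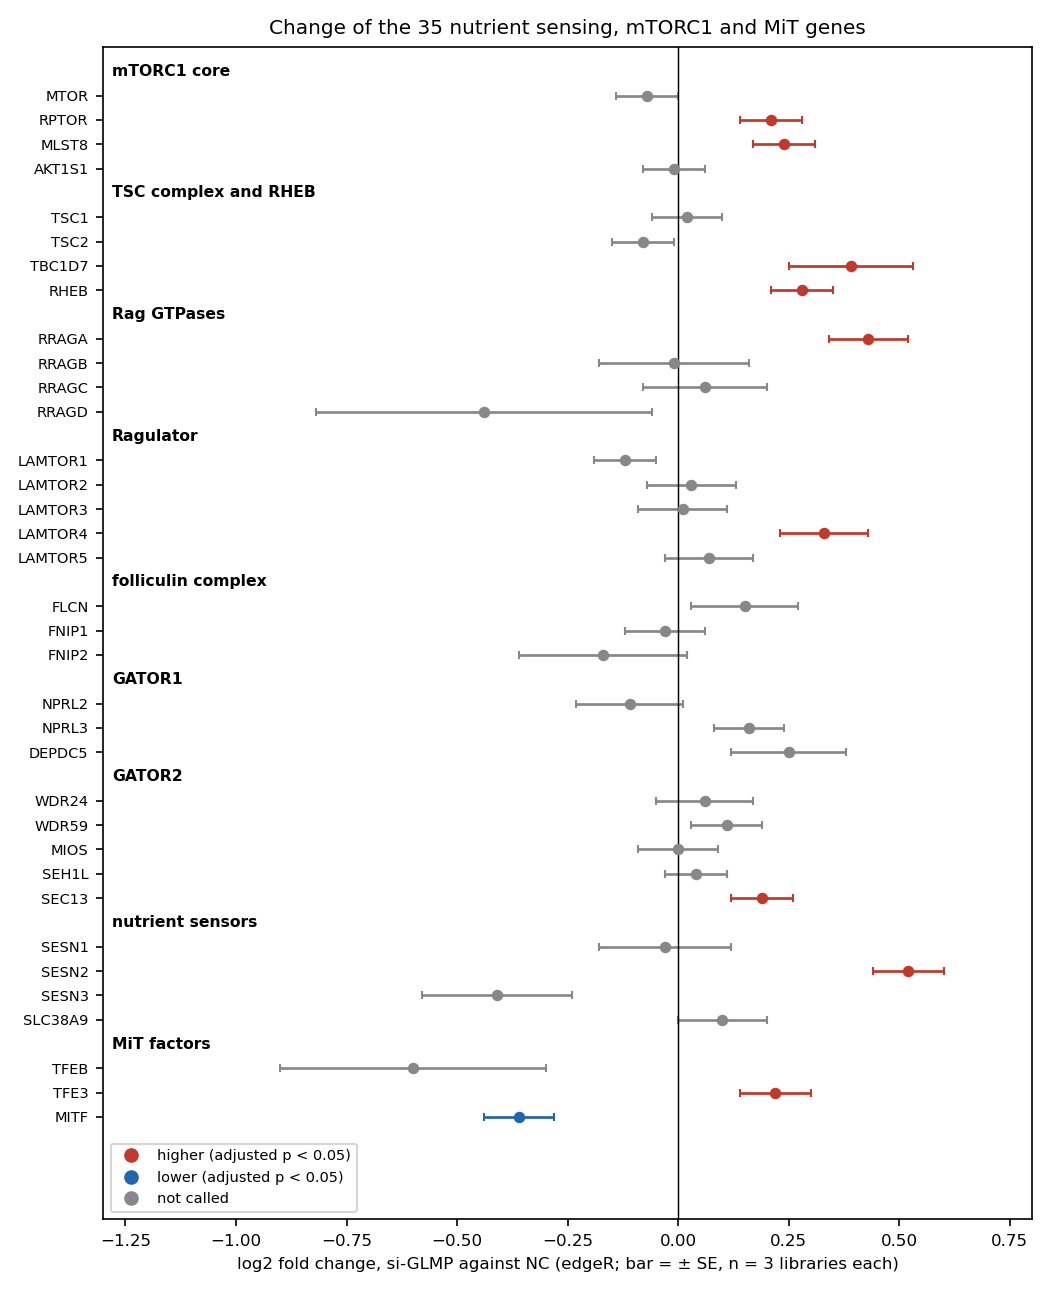
Log2 fold change of each of the 35 members in si-GLMP against NC, with bars of ± SE (edgeR, 3 libraries per group), arranged by complex. Red points were higher (9), blue lower (1) and grey not called (25), and the widest bars belong to RRAGD, TFEB and FNIP2, which had the fewest reads.

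Among the sensors, SESN2 rose and its relatives were not called. Sestrins bind GATOR2 and restrain mTORC1, and SESN2 senses leucine and is induced by stress through ATF4. SESN2 (ENSG00000130766, GRCh38 chromosome 1, 28259527 to 28282491, plus strand) had 43.2, 39.9 and 45.7 CPM in NC replicates 1 to 3. In si-GLMP replicates 1 to 3 it had 62.2, 62.8 and 60.3 CPM. All 3 si-GLMP libraries were above all NC libraries, with a gap wider than the spread within either group. The rise was 43.8%, a log2FC of 0.52 ± 0.08 (SE; edgeR BH-adjusted p = 4.36e-07), the largest positive change among the members.

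SESN1, a p53-responsive sestrin, had 6.82 ± 0.725 CPM in NC against 6.69 ± 0.795 CPM in si-GLMP (SD, n = 3 each; log2FC -0.03 ± 0.15). SESN3, a FOXO-responsive sestrin, had 5.67, 5.77 and 5.68 CPM in NC against 4.30, 3.40 and 5.23 CPM in si-GLMP. Its si-GLMP libraries were all below NC, but they spread widely and it was not called (log2FC -0.41 ± 0.17, edgeR BH-adjusted p = 0.0701). Without si-GLMP replicate 3, the nearest to NC, SESN3 passed (log2FC -0.56, edgeR BH-adjusted p = 0.0332). SLC38A9, the arginine sensor and transporter of the lysosomal membrane, had 25.4 ± 1.88 and 27.2 ± 3.38 CPM (SD, n = 3 each) and was not called.

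The GATOR complexes showed 1 called member in 8. GATOR1 inactivates the Rag GTPases RRAGA and RRAGB, and its 3 members had log2FCs of -0.11 (NPRL2), 0.16 (NPRL3) and 0.25 (DEPDC5). None of the 3 was called by edgeR, DESeq2 or limma-voom, and 1, NPRL3, had an unadjusted p under 0.05. DEPDC5, the largest subunit, had 8.64, 8.81 and 8.61 CPM in NC against 10.5, 9.95 and 10.6 CPM in si-GLMP. Its groups did not overlap, but the log2FC of 0.25 had a standard error of 0.13 and the edgeR adjusted p was 0.149. NPRL3 passed without NC replicate 2 (log2FC 0.24, edgeR BH-adjusted p = 0.0299).

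GATOR2 opposes GATOR1 and is where sestrins bind. SEC13, which also serves in COPII vesicle coats and nuclear pores, had 109, 102 and 109 CPM in NC against 134, 111 and 119 CPM in si-GLMP. The groups did not overlap, with si-GLMP replicate 1 the highest and si-GLMP replicate 2 close to NC. SEC13 rose by 0.19 ± 0.07 in log2 (edgeR BH-adjusted p = 0.0438), the weakest call of the set. It passed in 4 of 13 alternatives, and it was lost with RLE scaling (0.0508), with no filter on low counts (0.0667), in DESeq2 (0.0647) and in limma-voom (0.0605). It was also lost without NC replicates 1, 2 or 3 (edgeR BH-adjusted p = 0.0895, 0.147 and 0.0766) and without si-GLMP replicates 1 or 3 (0.290 and 0.0788). The other GATOR2 genes, WDR24, WDR59, MIOS and SEH1L, had log2FCs from -0.00 to 0.11 and were not called. In GENCODE 29, an opposite-strand gene covers 35.7% of WDR24's exonic length, and the strand setting of the counting is not given in the sources used here.

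One of the 4 Rag GTPases rose. Rag proteins work as pairs, RRAGA or RRAGB with RRAGC or RRAGD. RRAGA (ENSG00000155876; GRCh38 chromosome 9, 19049395 to 19050983, plus strand) had 26.7, 29.5 and 26.9 CPM in NC against 39.3, 37.0 and 35.5 CPM in si-GLMP. The 2 groups were well apart, the lowest si-GLMP library lying above the highest NC library by more than the range of either group. This was a rise of 34.8%, a log2FC of 0.43 ± 0.09 (edgeR BH-adjusted p = 0.000114). RRAGB, its close relative, had 4.43 ± 0.427 and 4.41 ± 0.364 CPM (SD, n = 3 each; log2FC -0.01 ± 0.17). RRAGA and RRAGB are similar in sequence, so reads shared between them are uncertain.

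RRAGC, a partner of RRAGA or RRAGB on which folliculin acts, had 8.44, 6.31 and 8.92 CPM in NC against 8.31, 8.96 and 7.36 CPM in si-GLMP. The groups overlapped fully and the log2FC was 0.06 ± 0.14 (edgeR BH-adjusted p = 0.830). In the annotation, 22.9% of its exonic length overlaps AL139260.2 on the same strand. RRAGD, a known MiT target, was close to the limit of measurement, with 18, 15 and 22 counts in NC and 13, 14 and 13 in si-GLMP. Its CPM values were lower in all 3 si-GLMP libraries, but the log2FC of -0.44 had a standard error of 0.38 (edgeR BH-adjusted p = 0.451), so a change was not detectable at this depth.

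Ragulator, the scaffold that anchors Rag GTPases to the lysosome, also had 1 called subunit in 5. LAMTOR4 had 22.5, 18.3 and 21.3 CPM in NC against 29.8, 24.0 and 24.2 CPM in si-GLMP. The groups did not overlap, but NC replicate 2 was the lowest library and si-GLMP replicate 1 stood above the rest. LAMTOR4 rose by 0.33 ± 0.10 in log2 (edgeR BH-adjusted p = 0.0119), and the call was lost without NC replicate 2 (0.25, adjusted p = 0.0974) or without si-GLMP replicate 1 (0.22, adjusted p = 0.143). In the annotation, 18.4% of its exonic length overlaps C7orf43 on the opposite strand.

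The lipid-anchored subunit LAMTOR1 had 92.9, 97.8 and 91.1 CPM in NC against 88.4, 81.6 and 88.8 CPM in si-GLMP. It was lower in all 3 si-GLMP libraries by a small step and was not called (log2FC -0.12 ± 0.07, edgeR BH-adjusted p = 0.213). LAMTOR2, LAMTOR3 and LAMTOR5 had log2FCs of 0.03, 0.01 and 0.07, each with a standard error of 0.10. The antisense gene of LAMTOR5 covers 17.5% of its exonic length.

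The folliculin complex, which acts on RRAGC and RRAGD and directs mTORC1 towards the MiT factors, had no called member by edgeR, DESeq2 or limma-voom, and 0 of its 3 genes had an unadjusted p under 0.05. FLCN had 12.9 ± 1.47 CPM in NC against 14.4 ± 1.20 CPM in si-GLMP (SD, n = 3 each; log2FC 0.15 ± 0.12). Its binding partners FNIP1 and FNIP2 had log2FCs of -0.03 ± 0.09 and -0.17 ± 0.19.

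RHEB, the direct activator of mTORC1, rose. It (ENSG00000106615; GRCh38 chromosome 7, 151466012 to 151520120, minus strand) had 129, 140 and 130 CPM in NC against 157, 176 and 151 CPM in si-GLMP. Every si-GLMP library was above every NC library, with si-GLMP replicate 2 the highest. The rise was 21.2%, a log2FC of 0.28 ± 0.07 (edgeR BH-adjusted p = 0.00171).

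TBC1D7, a small subunit of the TSC complex, had 6.33, 5.82 and 6.97 CPM in NC against 9.04, 7.64 and 8.38 CPM in si-GLMP. Its groups did not overlap, and the log2FC was 0.39 ± 0.14 (edgeR BH-adjusted p = 0.0373). The call was lost with no filter on low counts (0.0650), in DESeq2 (0.100), without NC replicates 1 or 2 (0.0934 and 0.133) and without si-GLMP replicates 1 or 3 (0.136 and 0.0840). TSC1 had 47.0 ± 1.35 and 47.8 ± 1.71 CPM, and TSC2, which inactivates RHEB, had 75.7 ± 1.20 and 71.5 ± 6.06 CPM (SD, n = 3 each). Their log2FCs were 0.02 ± 0.08 and -0.08 ± 0.07, and neither was called.

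Within mTORC1, RPTOR and MLST8 rose slightly and the kinase was not called. MTOR, the kinase, had 126, 129 and 121 CPM in NC against 120, 114 and 122 CPM in si-GLMP. The groups overlapped and the log2FC was -0.07 ± 0.07 (edgeR BH-adjusted p = 0.475). RPTOR, which brings substrates to the kinase, had 125, 118 and 118 CPM in NC against 147, 135 and 136 CPM in si-GLMP. Its groups did not overlap, and it rose by 0.21 ± 0.07 in log2 (edgeR BH-adjusted p = 0.0195). That call was lost without NC replicates 2 or 3 (adjusted p = 0.0563 and 0.0929) or si-GLMP replicate 1 (0.0871).

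MLST8, a beta-propeller protein bound to the kinase domain and shared with mTORC2, had 76.7, 87.0 and 78.4 CPM in NC against 99.0, 89.4 and 97.6 CPM in si-GLMP. The groups came close at NC replicate 2 and si-GLMP replicate 2 without overlapping. MLST8 rose by 0.24 ± 0.07 in log2 (edgeR BH-adjusted p = 0.0100), and the call was lost without NC replicates 1 or 3 (adjusted p = 0.0957 and 0.0651) or si-GLMP replicate 3 (0.0561). AKT1S1, the inhibitory subunit PRAS40, had 189 ± 6.77 and 187 ± 9.68 CPM (SD, n = 3 each; log2FC -0.01 ± 0.07).

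**Figure D2:**
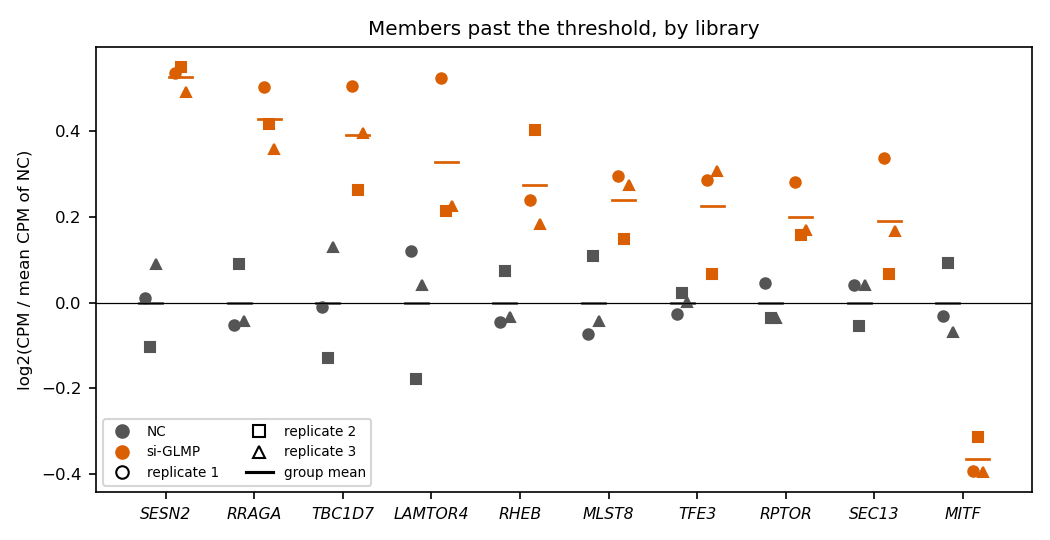
CPM of the 10 called members in each library, as log2 of the ratio to the NC mean; grey is NC, orange si-GLMP, the symbol shape is the replicate number and the short lines are group means. SESN2 and RRAGA stand clear of NC in all 3 si-GLMP libraries, whereas si-GLMP replicate 2 lies close to NC in TFE3, SEC13 and MLST8.

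The MiT factors moved in opposite directions. MITF (ENSG00000187098; GRCh38 chromosome 3, 69739435 to 69968337, plus strand) was the 1 member that fell. It had 53.4, 58.2 and 52.1 CPM in NC against 41.6, 43.9 and 41.5 CPM in si-GLMP. Every si-GLMP library was below every NC library, and the si-GLMP libraries lay close together. The log2FC was -0.36 ± 0.08 (edgeR BH-adjusted p = 0.000322), a fall of 22.3%. Counts are per gene, so the alternative starts of MITF were not separated.

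TFE3 had 54.5, 56.4 and 55.6 CPM in NC against 67.7, 58.1 and 68.7 CPM in si-GLMP. The groups did not overlap, but si-GLMP replicate 2 lay just above NC. TFE3 rose by 0.22 ± 0.08 in log2 (edgeR BH-adjusted p = 0.0259), and the call was lost without NC replicates 1 or 3 (adjusted p = 0.108 and 0.0770) and without si-GLMP replicates 1 or 3 (0.0942 and 0.148). TFEB had 34, 29 and 41 counts in NC and 14, 24 and 30 in si-GLMP. In CPM this was 1.71, 1.42 and 1.82 against 0.684, 1.13 and 1.45, and the groups overlapped. Its log2FC was the most negative of the members, but it was not called (-0.60 ± 0.30, edgeR BH-adjusted p = 0.155).

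Levels per length place these genes within their complexes. CPM was divided by the length in kb of the longest coding transcript in the GENCODE 29 basic set, which is a rough scale where shorter isoforms dominate. In NC the highest members were LAMTOR1 (69.8 ± 2.56 CPM per kb), SEC13 (66.4 ± 2.58) and RHEB (64.1 ± 3.10), and RRAGD was the lowest at 0.178 ± 0.0254 (SD, n = 3 each). Neighbours among the highest 3 overlapped between NC libraries, so these are not ordered. Ragulator subunits ran from LAMTOR1 through LAMTOR2 (34.5), LAMTOR4 (28.4) and LAMTOR5 (19.1) to LAMTOR3 (5.17 CPM per kb). For mTORC1 the order was AKT1S1 (51.9), MLST8 (43.1), RPTOR (18.8) and MTOR (14.4 CPM per kb). GATOR1 went from NPRL3 (19.6) through NPRL2 (8.44) down to DEPDC5 (1.34 CPM per kb). No neighbours in these 3 orders overlapped between NC libraries. RRAGC and RRAGB (2.89 and 2.15 CPM per kb) overlapped in NC, as did FNIP1 and FLCN (3.98 and 3.56 CPM per kb), so neither of these pairs is ordered.

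**Figure D3:**
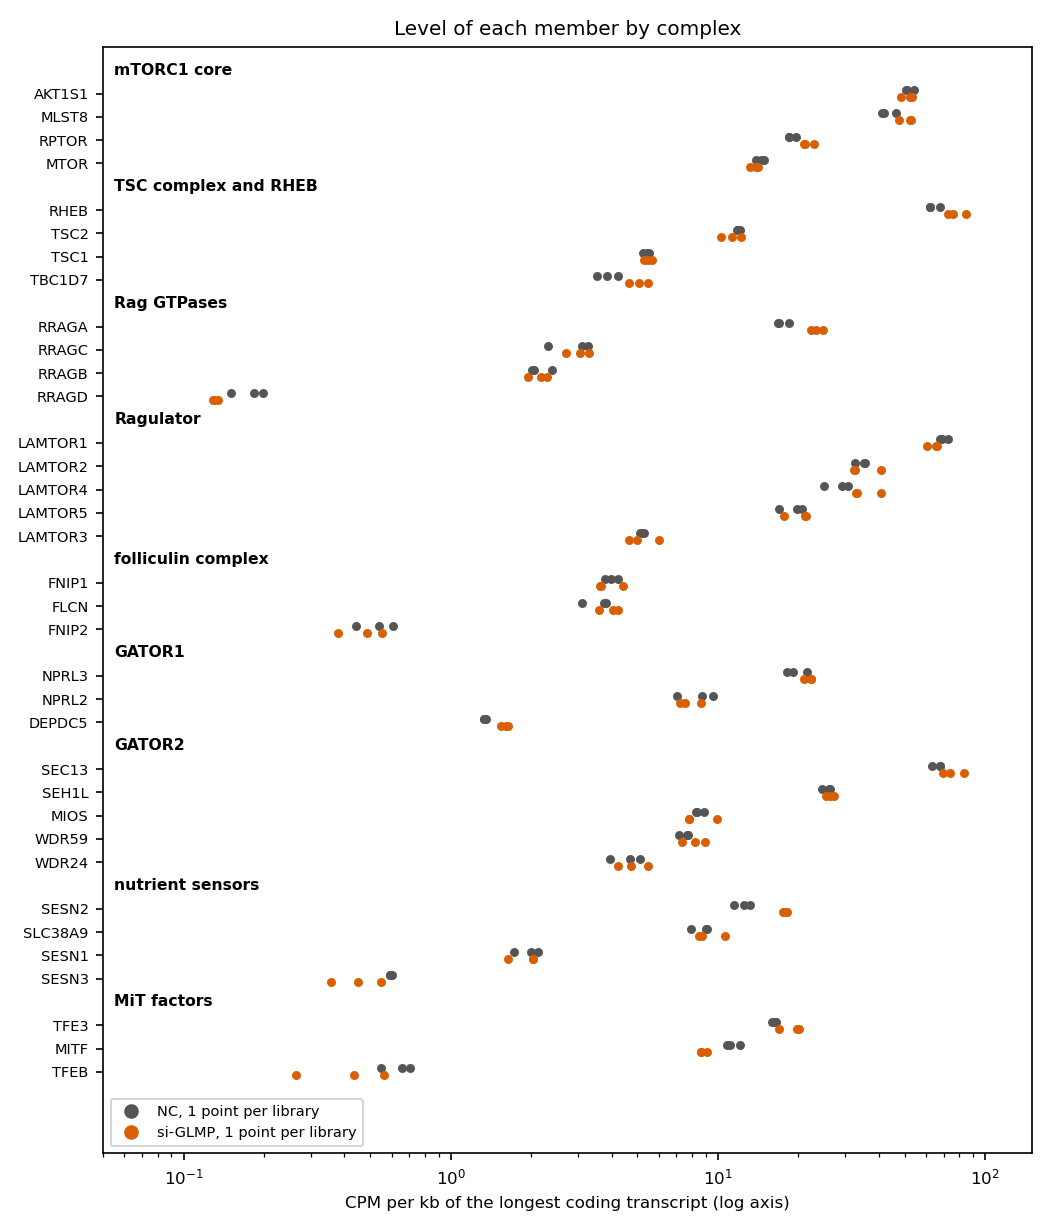
Level of each member in CPM per kb of its longest coding transcript on a log axis, 1 point per library, NC in grey and si-GLMP in orange. Members of 1 complex span wide ranges, from 0.178 (RRAGD) to 17.4 CPM per kb (RRAGA) among the Rag GTPases in NC, while the groups differ little.

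Within each paralog family 1 gene dominated, except among the MiT factors. RRAGA made up 89.0 ± 1.29% of the RRAGA and RRAGB level per kb in NC and 91.6 ± 0.282% in si-GLMP (SD, n = 3 each). RRAGC made up 94.2 ± 0.235% and 95.8 ± 0.316% of the level of RRAGC and RRAGD, and FNIP1 88.2 ± 2.01% and 89.2 ± 1.26% of that of FNIP1 and FNIP2. SESN2 held 82.2, 83.3 and 83.6% of the sestrin level in NC and 89.6, 88.4 and 87.1% in si-GLMP. Its share was higher in each si-GLMP library. Among the MiT factors, TFE3 held 57.6, 56.6 and 58.6% in NC and 69.0, 64.0 and 68.7% in si-GLMP. The share of MITF was 40.1 ± 1.28% in NC and 31.3 ± 2.66% in si-GLMP, and that of TFEB 2.26 ± 0.339% and 1.49 ± 0.514% (SD, n = 3 each). TFE3 thus led MITF in NC and by a wider margin in si-GLMP, with no overlap between the groups. Not divided by length, the NC means were close, at 49.7% for TFE3 and 48.8% for MITF, and in NC replicate 2 MITF was the higher (50.2% against 48.6%). These shares are descriptions and were not tested.

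**Figure D4:**
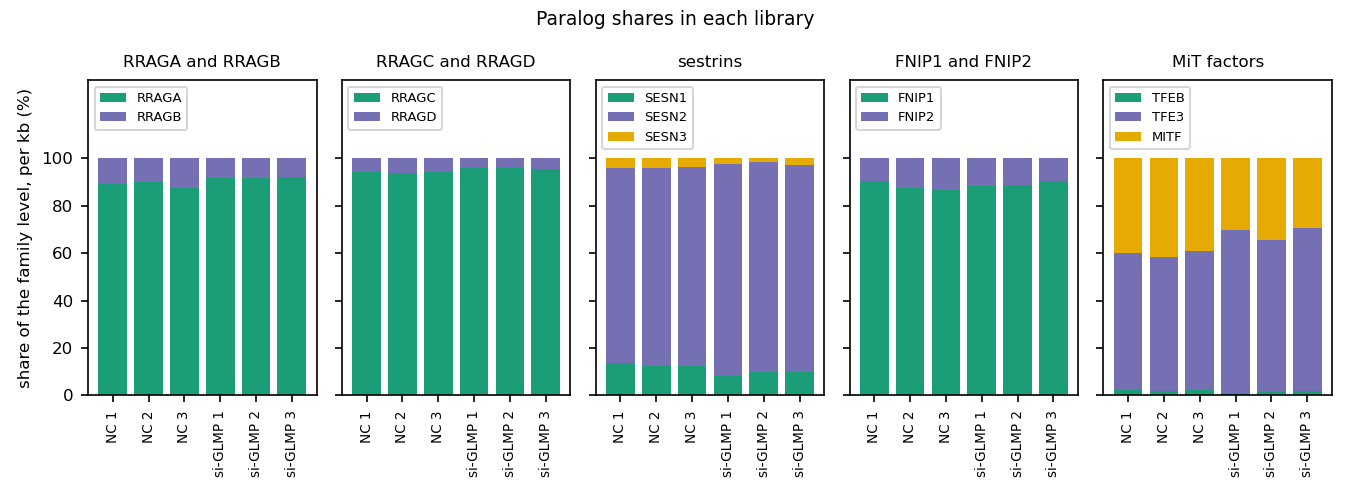
Share of each paralog in the summed level per kb of its family, 1 bar per library, for 5 families. RRAGA, RRAGC, SESN2 and FNIP1 each hold over 80% in every library, and among the MiT factors the MITF part shrinks from 40.1% on average in NC to 31.3% in si-GLMP as TFE3 grows.

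The wider pathway was followed through 10 lists of 143 further genes, of which 137 could be tested. Of these, 40 were higher and 14 lower (29.2% and 10.2%, beside 12.0% and 11.3% of all tested genes), with a median log2FC of 0.07. The lists were chosen with earlier results of these data known, so their shares are not those of genes picked blindly. Inputs from insulin and PI3K went both ways, with 3 of 15 tested genes higher and 4 lower. IRS1, an insulin receptor substrate, rose by 0.30 ± 0.07 in log2 (edgeR BH-adjusted p = 0.000435).

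Energy and stress inputs had 4 of 14 genes higher and 1 lower. DDIT4 (REDD1), which restrains mTORC1 through the TSC complex, had the largest rise of the named genes that were abundant, at 0.93 ± 0.11 (edgeR BH-adjusted p = 0.000135), though 41.2% of its exonic length overlaps an antisense gene. DDIT4L, its relative, rose by 1.15 ± 0.31 from a low level of 0.905 ± 0.416 CPM (SD, n = 3), with overlapping groups, and TXNIP, a glucose-responsive arrestin, rose by 0.25. Leaving out si-GLMP replicate 2 lost the DDIT4L call (edgeR BH-adjusted p = 0.0536) and leaving out NC replicate 3 that of TXNIP (0.0930).

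KICSTOR, which tethers GATOR1 to the lysosome, and the cytosolic sensors had 4 of 8 tested genes higher and 1 lower. SAR1B, a COPII GTPase also described as a leucine sensor, rose by 0.29, and the arginine sensor gene CASTOR2 had -0.40 ± 0.10 (edgeR BH-adjusted p = 0.00238). CASTOR2 has near-identical copies in the genome, so its value is uncertain. The SAR1B call was lost without NC replicate 2 (edgeR BH-adjusted p = 0.0843) or si-GLMP replicate 2 (0.0730).

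Other regulators of GATOR and the Rag GTPases had 2 of 11 tested genes higher and 2 lower. RNF167, a ubiquitin ligase that acts on SESN2 and CASTOR1, rose by 0.49 ± 0.07 (edgeR BH-adjusted p = 2.81e-07). C9orf72, part of a complex recruited to lysosomes, rose by 0.49 and the phosphatase subunit gene PPP2R5D had -0.29. Leaving out si-GLMP replicate 2 lost the C9orf72 call (edgeR BH-adjusted p = 0.111). That of PPP2R5D was lost without NC replicates 1 or 2 (0.110 and 0.0774) or si-GLMP replicate 2 (0.0992), and 36.0% of its exonic length overlaps MEA1 on the opposite strand. BORC, the complex that binds Ragulator and positions lysosomes, had 3 of 9 tested genes higher and 0 lower. SNAPIN rose by 0.49 ± 0.10 (edgeR BH-adjusted p = 0.000113) and BORCS7 by 0.55. mTORC2 and TOR assembly genes had 0 of 8 called by edgeR, DESeq2 or limma-voom, and 2 with an unadjusted p under 0.05.

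Downstream of mTORC1, a list of 16 genes, not all of them direct substrates, had 2 higher and 2 lower. EIF4EBP2, a translation repressor that mTORC1 inactivates, went from 190 ± 3.13 to 262 ± 15.3 CPM (SD, n = 3 each; log2FC 0.47 ± 0.06, edgeR BH-adjusted p = 9.15e-08). PDCD4, another translation repressor, had -0.43, with 28.1% of its exonic length overlapping BBIP1 on the opposite strand, and the autophagy gene UVRAG had -0.30. The UVRAG call was lost without NC replicate 3 (edgeR BH-adjusted p = 0.184) or si-GLMP replicates 1 or 3 (0.0582 and 0.0775). RPS6KB1, the gene of the S6 kinase, was the other higher gene of this list (0.23, edgeR BH-adjusted p = 0.0455). Its groups overlapped, however, and the call was lost in 8 of 13 alternatives. Transcripts do not report the activity of mTORC1, which acts by phosphorylation.

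Regulators of the MiT factors had 4 of 13 genes higher and 1 lower. MCOLN1, the lysosomal calcium channel upstream of calcineurin, rose by 0.47 ± 0.13 (edgeR BH-adjusted p = 0.00431), and SFN, an epithelial 14-3-3 protein, by 0.52 ± 0.06 (edgeR BH-adjusted p = 3.13e-09). PPP3CA, a catalytic subunit of calcineurin, the phosphatase that releases TFEB, went from 78.3 ± 2.04 to 56.4 ± 2.26 CPM (SD, n = 3 each; log2FC -0.47 ± 0.07, edgeR BH-adjusted p = 1.00e-06). The other catalytic subunit gene in the list, PPP3CB, moved the opposite way (0.22 ± 0.08, edgeR BH-adjusted p = 0.0304). That call held in 8 of 13 alternatives, and the calcineurin subunit gene PPP3R1 was not called (-0.07). Among MiT target genes, 10 of 26 tested were higher and 2 lower, with a median of 0.21. The smallest adjusted p were those of CTSD (0.66), CTSB (-0.62) and SQSTM1 (0.49), and a same-strand gene covers 41.7% of CTSD's exons.

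The ATF4 amino acid response, to which SESN2 also belongs, had 8 of 17 genes higher and 1 lower, with a median of 0.18. Of the 8, ATF4, DDIT3, MTHFD2 and SLC3A2 passed in each of 13 alternatives and SLC7A5 in 12. CHAC1 passed in 9, PSPH in 8 and SLC38A2, whose groups overlapped, in 5. Another 8 genes were not called, among them ATF3, TRIB3, ASNS and PSAT1. ASNS was low, at 2.12 ± 0.0663 CPM in NC (SD, n = 3), with a log2FC of -0.05 ± 0.24 (SE). Of its exonic length, 44.6% overlaps AC079781.5 on the same strand, so its value is uncertain. ATF4 had 488, 521 and 538 CPM in NC against 651, 611 and 616 CPM in si-GLMP, with no overlap. It rose by 0.28 ± 0.06 in log2 (edgeR BH-adjusted p = 0.000547). MTHFD2, a mitochondrial folate enzyme, rose by 0.28, with 33.2% of its exonic length overlapping genes on the opposite strand, and PHGDH, the first enzyme of serine synthesis, had -0.29.

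**Figure D5:**
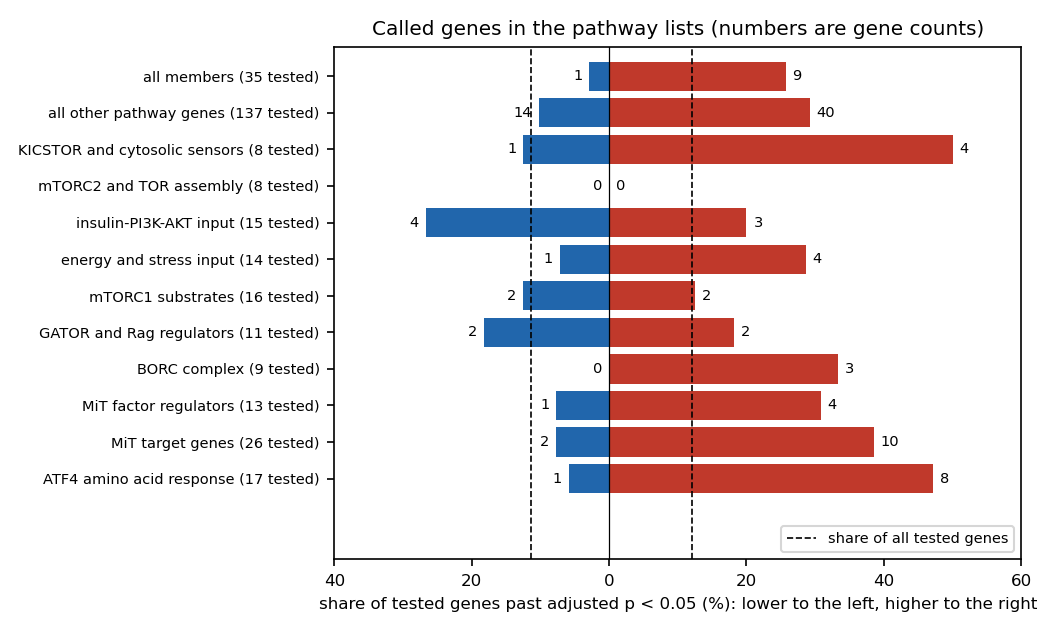
Share of tested genes called higher (red, to the right) or lower (blue, to the left) in si-GLMP for the members, the other pathway genes together and each of the 10 pathway lists; numbers are gene counts and dashed lines are the shares among all tested genes (12.0% higher, 11.3% lower). The members show 9 higher and 1 lower of 35, and mTORC2 and TOR assembly genes show 0 of either.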

How the data were processed

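The authors deposited raw read counts per gene for 6 libraries, with Ensembl identifiers and symbols. The submitters' processing notes name HISAT2 and GRCh38. Neither the counting tool nor its annotation release and strandedness is given in the sources used here. Trizol was used to extract RNA for Illumina mRNA libraries, per the labels' protocols.

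Groups and replicate numbers were read from the sample titles. The members were matched by table symbol. A few genes of the pathway lists were matched by gene identifier. Counts were tested with edgeR 4.0.16 in R 4.3.3, using filterByExpr (minimum count 10), TMM scaling, robust quasi-likelihood fits with the group as the only term, and Benjamini-Hochberg adjustment over 15900 genes with a threshold of 0.05. A standard error is the log2 fold change over the root of the F statistic. On simulated counts of 15900 genes, 24 of 50 genes changed 1.3-fold were recovered, 38 of 50 at 1.5-fold and 47 of 50 at 2-fold. In that simulation 4 unchanged genes were called. Only these genes and 50 at 3-fold were changed, with the same dispersion for every gene, whereas 3712 genes were called in the data. The recovery therefore describes that setting and does not measure the sensitivity of the comparison made here. At these totals, without TMM scaling, 3 counts equal 0.134 to 0.151 CPM.

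The alternatives tried were upper-quartile and RLE scaling, no filter, a filter of 1 CPM in 3 libraries, DESeq2 1.42.0, limma-voom (limma 3.58.1), the replicate number as a block and each library left out in turn. The members and lists were chosen with earlier results of these data known. Values of every library were given for the called members and for TFEB, TFE3, MITF, MTOR and RRAGC, and from each pathway list up to 3 called genes with the smallest adjusted p were named; some of these are not reported here. RPS6KB1, PPP3CB, PPP3R1, the further named genes of the ATF4 response and the values per library of SESN3, DEPDC5, LAMTOR1, RRAGD and ATF4 were added after they were seen. Positions and overlaps are from GENCODE 29 (GRCh38), and start windows from RefSeq.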

Additional observations from a re-analysis of the deposited data

How the results depend on the processing

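Depth limits the members with few reads: 9 had an NC mean under 10 CPM and standard errors of 0.13 to 0.38 on the log2 scale, against 0.07 to 0.08 for the 15 members over 40 CPM. Over 13 alternatives, 0 of the values of the 35 members that were called in either fit changed direction. Of 454 values, 27 lost a call, 2 gained one (NPRL3 and SESN3) and 425 stayed on their side of the threshold. With 1 library left out, between 4 and 9 members were higher and 1 or 2 lower, and all genes called ranged from 2804 to 3448. Fewer libraries were then fitted, and no other cause was tested. With an absolute log2 fold change over 0.3 also required, 4 members were higher. Of the 27 pathway genes that the naming rule chose, 12 of 351 values lost their call. Not divided by length, RRAGB held 13.8% of its family in NC and 10.6% in si-GLMP, RRAGD 9.99% and 7.28%, SESN2 77.4% and 84.9%, and MITF 48.8% and 39.2%.

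Same-numbered libraries hardly deviated together from their group means (correlations 0.0388, 0.0263 and 0.00128 across genes). Differently numbered libraries had correlations from -0.038 to 0.00963. NC replicates 1 and 2 were closest to the si-GLMP library of the same number, and NC replicate 3 to si-GLMP replicate 2. These small values do not settle whether the numbers pair the libraries. With the replicate number as a block, 3972 genes were called in place of 3712, and the members had 9 higher and 1 lower, the same 10 genes. In that fit the other pathway genes had 43 higher and 16 lower, and GLMP had -2.25.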
